A study of Mus musculus with 13 samples.

Results

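Transcript levels in whole mouse back skin around the time the lights came on were compared with those around the time the lights went off, across all genes measured on the array. Light and dark each lasted 12 h, and zeitgeber time (ZT) counts the hours from lights on at ZT0, so that the lights went off at ZT12. Around lights on means ZT22 and ZT2, with 5 arrays (collection hours 2, 22, 26, 46 and 50), and around lights off means ZT10 and ZT14, with 4 arrays (hours 10, 14, 34 and 38). These are 9 of the 13 arrays of the series, and the label of the collection time alone placed each in its group. The other 4 arrays, of ZT6 and ZT18, took no part in the comparison and are described at the end. All mice were male C57Bl6 animals of postnatal day 46 fed standard chow, and the labels name no mutation or treatment. Their hair follicles were in telogen, when follicles rest between rounds of growth. Each array measured RNA of 3 mice pooled in equal amounts, so p-values measure the spread between pools, not that between animals. As each group joins arrays of different times of day, that spread also holds the differences between those times.

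The circadian clock is a feedback loop that most cells of the body keep. In it the activators BMAL1 (gene Arntl) and CLOCK bind E-box sequences and switch on the genes of their own repressors, the period and cryptochrome proteins. A second loop of REV-ERB and ROR nuclear receptors controls Arntl itself, and output factors such as DBP carry the rhythm to other genes. In skin the clock is known to run in keratinocytes, fibroblasts and hair follicle cells, and mice are active mainly in the dark.

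Values are linear probe set intensities as the authors deposited them, and differences are log2(intensity + 16), around lights on minus around lights off, so that a positive value means higher around lights on. With this offset the folds of dim genes come out too small. Array medians were 353.8 to 392.8, and the number of arrays limits the precision. Of 14 skin markers measured, 12 were among the brightest 25% of genes, including the keratins Krt5 and Krt10, Col1a1 of fibroblasts, Adipoq of fat cells and Acta1 of muscle. The exceptions were the pigment genes Dct and Tyrp1. A pair of arrays around lights on stood apart. In the array of hour 46 the summed intensity of 29 hair shaft genes was 99093, against 7505 to 9400 in the other arrays around lights on and 8979 to 12786 around lights off. In the array of hour 2 the summed lists of macrophages and dendritic cells, of T cells and mast cells, and of dermal fibroblasts were the lowest of their group, and 20 genes of the exocrine pancreas summed to 8541 against at most 5666 in the other 8 arrays compared. Genes of liver, which is not part of skin, were present in both groups, with a summed intensity of 28481 to 132036 around lights on and 38266 to 163186 around lights off. Results are therefore also given without the arrays of hours 2 and 46 where that ends or adds a call.

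**Figure D1:**
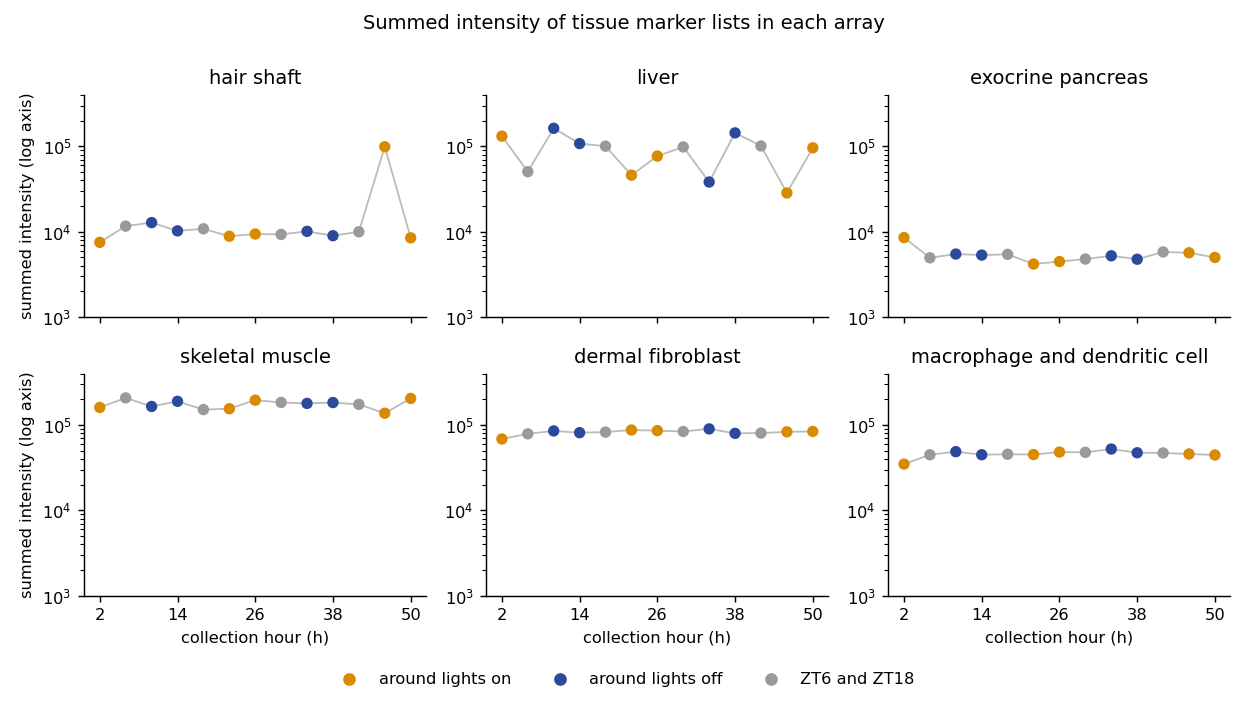
Summed intensity of the measured genes of 6 cell type and tissue lists in each of the 13 arrays (y axis, log scale, no unit) against collection hour (x axis, h); each point is 1 array, coloured by group. The hair shaft list reaches 99093 at hour 46, and the liver list varies from 28481 to 163186 within the groups compared.

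Of 14953 genes tested, 153 (1.02%) differed between the groups at an adjusted p under 0.05 in limma with Benjamini-Hochberg adjustment. They were split between 73 genes higher around lights on (0.488%) and 80 higher around lights off (0.535%). The median fold was 1.46 for the genes higher around lights on, with 6 at 2-fold or more, and 1.50 for those higher around lights off, with 15 at 2-fold or more. In each of the 153 genes the 5 arrays around lights on did not overlap with the 4 around lights off, which held for 946 of all genes tested (6.33%). The median difference over all genes was -0.012, and 2019 genes had an unadjusted p under 0.05. Without the arrays of hours 2 and 46, 188 genes were called and 114 of the 153 kept their call. With ZT22, ZT2, ZT10 and ZT14 fitted separately, 137 genes were called and 112 of the 153 kept their call. The share of calls that were higher around lights on was 47.7%. It rose to 59.0% without hours 2 and 46, 55.7% after quantile normalization and 58.2% with the arrays shifted to the same median. It fell to 40.9% with the times of day fitted separately. With the collection day as a block it was 37.9%, and with the receptor gene score as a covariate 35.4%, both fits described below. With single arrays left out it ran from 31.1% (without hour 10) to 53.8% (without hour 2). Leaving out a single array gave between 45 calls (without hour 10) and 246 (without hour 46), with 49 without hour 38, 53 without hour 14, 75 without hour 50, 82 without hour 26 and 95 without hour 34. Across collection days, a fit with the day as a block, which drops hour 50, called 58 genes. Of the 89 called genes named in the text 49 lost their call with that block. The 40 that kept it were Arntl, Per1, Per2, Per3, Ciart, Cry2, Bhlhe40, Dbp, Tef, Hlf, Usp2 and Klf15 of the clock lists, Spon2, Arhgap20, Adamts4, Tshr, Cxcl14, Has2, Mthfd2, Scd2, Aknad1, Anln, Cdc20, Cdca3, Sdf2l1 and Ostc toward lights on, and Angptl7, Mylk4, Tspan4, Zbtb16, Fkbp5, Tsc22d3, Lmod2, Alas1, Glul, Slc6a6, Adcyap1r1, Il31ra, Irs2 and Stc2 toward lights off. Without hours 2 and 46 together 70 of the 89 kept their call, and with the times of day fitted separately 72 did. With the receptor gene score, described below with the mitosis genes, as a covariate, 46 of the 89 lost their call. Among these were Per2, Klf15, Mthfd2, Cdca3, Ostc, Lmod2, Il31ra and Irs2, which had kept their calls with the day as a block. Within day 1 or day 2 alone, with 2 arrays against 2, limma called 0 genes, with 5245 and 576 at an unadjusted p under 0.05, and the median difference of the 153 was 0.63 and 0.49 for genes higher around lights on and -0.62 and -0.60 for genes higher around lights off.

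**Figure D2:**
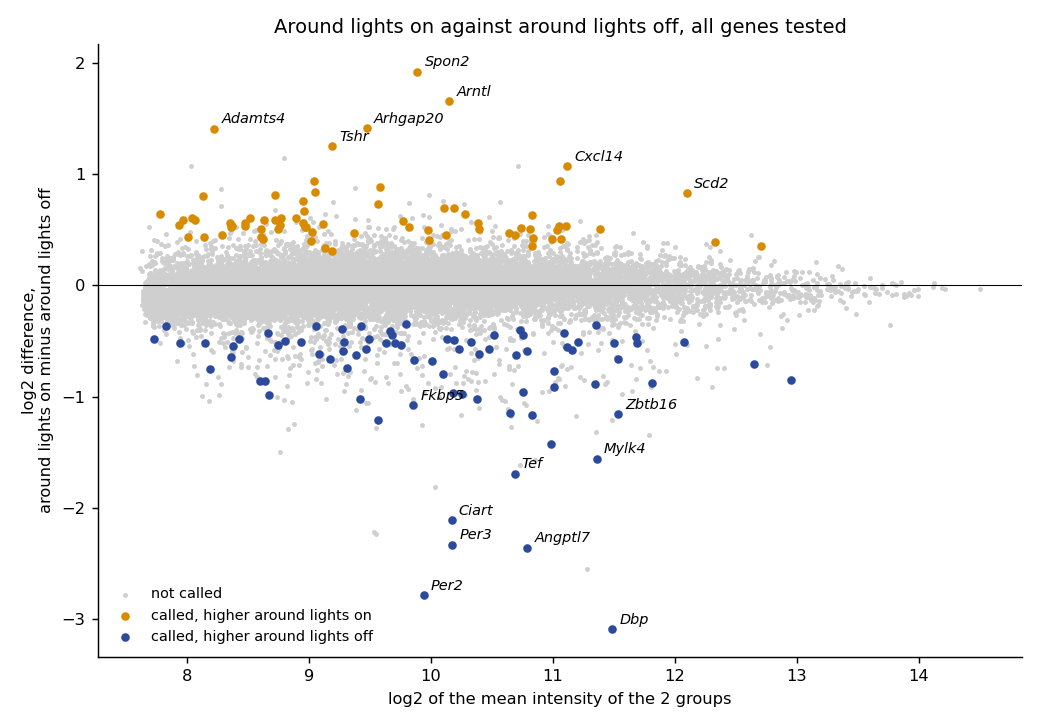
Log2 difference around lights on minus around lights off (y axis) against the log2 of the mean intensity of the groups (x axis), 1 dot for each of 14953 genes tested; coloured dots are the 153 genes called by limma. Spon2 and Arntl lie highest at 1.92 and 1.66, and Dbp and Per2 lowest at -3.09 and -2.79.

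The clock activators were high around lights on. Arntl, the gene of BMAL1, measured 1594, 2065, 1661, 1627 and 1630 at hours 2, 22, 26, 46 and 50, and 369.5, 774, 409 and 670.4 at hours 10, 14, 34 and 38. The groups did not overlap, and around lights off both ZT14 arrays were higher than both ZT10 arrays. Arntl differed by 1.66 ± 0.20 in log2 (SE), 3.16-fold, adjusted p = 0.00406. Clock, the gene of its partner, was higher in the same 5 arrays (2462 to 2823) than around lights off (1611 to 1940), by 0.53 ± 0.08 in log2 (SE), 1.45-fold, adjusted p = 0.013, a call lost without hour 10 (adjusted p = 0.0567). The related genes Arntl2 and Rora, a receptor that activates Arntl, had differences of 0.25 and -0.10 with adjusted p-values of 0.289 and 0.554 (limma). Of the 4 tested genes of the activator list 2 were thus higher around lights on, where 0.488% of all genes were called, and the list median was 0.39. As these are bulk samples, fewer cells of a type and less RNA per cell cannot be told apart here or in any result that follows.

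Of the 12 tested clock repressors, 7 were higher around lights off, where 0.535% of all genes were called, and none higher around lights on. The list median was -1.09. The period genes, whose proteins enter the nucleus to block CLOCK and BMAL1, were all called, and Per2 and Per3 differed most in the list. Per2 measured 162, 455, 126, 518 and 126 at hours 2, 22, 26, 46 and 50 and 1545, 1904, 1537 and 1768 at hours 10, 14, 34 and 38. Per2 differed by -2.79 ± 0.40 in log2 (SE), 6.90-fold, adjusted p = 0.0112, and its call was lost with the receptor gene score, described below with the mitosis genes, as a covariate (adjusted p = 0.0536). Within the group around lights on its ZT22 arrays (455 and 518) were above its ZT2 arrays (126 to 162), all below the lowest array around lights off. Per3 measured 446, 425, 355, 329.5 and 311 around lights on and 2148, 1581, 2212 and 1821 around lights off in the same order of hours. The highest array around lights on (446) was far below the lowest around lights off (1581), for -2.33 ± 0.13 in log2 (SE), 5.03-fold, adjusted p = 1.71e-05. Per1 lay between 907 to 1177 around lights on and 2257 to 3611 around lights off, with -1.43 ± 0.15 in log2 (SE), 2.69-fold, adjusted p = 0.00127.

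Ciart, which encodes the BMAL1 inhibitor CHRONO, measured 444, 402, 483, 378 and 293 around lights on and 2658, 1005, 2573 and 1380 around lights off. Its ZT10 arrays (2658 and 2573) were well above its ZT14 arrays (1005 and 1380), and all 4 were above the 5 around lights on, with a difference of -2.11 ± 0.27 in log2 (SE), 4.32-fold, adjusted p = 0.00623. The DEC repressors, which compete for E-boxes, followed the same direction. Bhlhe40 was 669 to 973 around lights on and 1370 to 1642 around lights off (-0.96 ± 0.11 in log2 (SE), 1.95-fold, adjusted p = 0.00331), and Bhlhe41 was 369 to 573 and 771 to 1370 (-1.21 ± 0.19 in log2 (SE), 2.31-fold, adjusted p = 0.0159), a call lost without hour 10 (adjusted p = 0.066). Cry2, 1 of the cryptochrome genes, was at 962 to 1164 against 1602 to 1706. Cry2 differed by -0.62 ± 0.07 in log2 (SE), 1.53-fold, adjusted p = 0.00367.

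Several repressors did not pass. Cry1 measured 298, 679, 301, 541 and 299.6 around lights on and 368, 578, 360.5 and 492 around lights off, so the groups overlapped (-0.14 ± 0.26, SE, adjusted p = 0.793, limma). Its ZT22 and ZT14 arrays were all higher than its ZT2 and ZT10 arrays. Nr1d1, the gene of REV-ERB alpha, measured 5021, 1392, 5663, 1460 and 5328 and 8196, 3510, 8632 and 4991. It was low in both ZT22 arrays, but its 3 ZT2 arrays were above both ZT14 arrays, and its difference of -0.91 had an adjusted p of 0.43. Nr1d2, its close relative, did not overlap between the groups (348 to 1546 and 2041 to 2919), yet its difference of -1.61 ± 0.35 (SE) had an adjusted p of 0.0616, and 0.0122 without hours 2 and 46. Csnk1d and Csnk1e, casein kinases that mark period proteins for turnover, had differences of -0.02 and -0.13.

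Among the 10 clock output factors 6 were higher around lights off and 1 higher around lights on, where 0.535% and 0.488% of all genes were called. Dbp, an activator of D-box genes, had the largest difference of all genes tested. It measured 940.1, 434, 684, 458 and 463 at hours 2, 22, 26, 46 and 50 and 6524, 3160, 6225 and 4697 at hours 10, 14, 34 and 38. Dbp differed by -3.09 ± 0.26 in log2 (SE), 8.51-fold, adjusted p = 0.000501. The lowest array around lights off, of hour 14, was still far above the highest around lights on, of hour 2. Tef, of the same family, was at 678 to 832 and 2381 to 2742 (-1.69 ± 0.08 in log2 (SE), 3.23-fold, adjusted p = 6.16e-06), and had the smallest p of all genes tested; Hlf, the third member, was at 797 to 1189 and 2012 to 2378. Hlf differed by -1.14 ± 0.12 in log2 (SE), 2.21-fold, adjusted p = 0.00121. Nfil3, a repressor that binds the same D-boxes, ran opposite with 419.9, 587, 509, 599 and 581 around lights on and 250.1, 389.9, 231 and 348 around lights off (0.81 ± 0.16 in log2 (SE), 1.75-fold, adjusted p = 0.0438), but its call was lost without any 1 array except hours 2 and 14 (adjusted p up to 0.164). Usp2, a ubiquitin protease that acts on clock proteins, was higher around lights off, with a difference of -0.77 ± 0.08 in log2 (SE), 1.70-fold, adjusted p = 0.00121. Klf15 was higher by 1.54-fold (adjusted p = 0.0176; lost without hour 10, 14 or 38, up to 0.0713), and Wee1, whose kinase inhibits CDK1, by 1.97-fold (adjusted p = 0.032; lost without any 1 array except hours 2, 22 and 46, up to 0.121). Klf9 at -0.52 (adjusted p = 0.0529), Nampt at -0.34 (0.175) and Klf10 at 0.04 (0.814) did not pass.

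The promoters of these genes were searched for the sequences that clock factors bind, in windows of 250 bases before to 50 bases after the start site taken from RefSeq (GRCm38.p6), both strands. The motifs were the E-box CACGTG of BMAL1 and CLOCK, the D-box TTATGTAA or TTACGTAA of DBP and NFIL3, and the element TAGGTCA or TGGGTCA of the REV-ERB and ROR receptors. Of the 8 genes with a window that ranked highest in the comparison, 4 in each direction, Ciart, Per3, Cldn10 and Arntl held a match. Their windows are shown 5′ to 3′ on the strand of the gene because they pair a motif with a gene of known direction here; capitals mark every match. Ciart holds 3 E-boxes, Per3 and Cldn10 (in 1 of its 2 windows) hold D-boxes, and Arntl (in 1 of its 2 windows) holds a receptor element. The windows of Arhgap20, Cxcl14, Dbp and Angptl7 hold none of these letters.
Ciart, chr3:95882179-95882478, reverse strand: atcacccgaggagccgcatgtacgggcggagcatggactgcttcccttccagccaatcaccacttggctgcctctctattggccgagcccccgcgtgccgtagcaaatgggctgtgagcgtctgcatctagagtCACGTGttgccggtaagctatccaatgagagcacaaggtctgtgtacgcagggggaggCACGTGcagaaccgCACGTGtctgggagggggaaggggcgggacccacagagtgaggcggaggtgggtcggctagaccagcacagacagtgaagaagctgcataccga
Per3, chr4:151044616-151044915, reverse strand: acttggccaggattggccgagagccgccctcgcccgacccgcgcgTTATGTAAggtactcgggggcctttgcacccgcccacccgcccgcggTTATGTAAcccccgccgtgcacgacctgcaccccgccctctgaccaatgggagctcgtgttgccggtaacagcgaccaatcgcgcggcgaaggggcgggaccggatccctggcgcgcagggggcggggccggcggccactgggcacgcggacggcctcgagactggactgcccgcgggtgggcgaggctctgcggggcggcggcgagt
Cldn10, chr14:118787621-118787920, forward strand: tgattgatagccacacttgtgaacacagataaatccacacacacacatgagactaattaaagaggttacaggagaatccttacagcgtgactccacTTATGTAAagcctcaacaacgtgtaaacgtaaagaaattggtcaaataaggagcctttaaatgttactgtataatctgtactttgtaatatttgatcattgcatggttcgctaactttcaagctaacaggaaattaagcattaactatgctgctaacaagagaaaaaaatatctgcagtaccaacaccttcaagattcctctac
Arntl, chr7:113207261-113207560, forward strand: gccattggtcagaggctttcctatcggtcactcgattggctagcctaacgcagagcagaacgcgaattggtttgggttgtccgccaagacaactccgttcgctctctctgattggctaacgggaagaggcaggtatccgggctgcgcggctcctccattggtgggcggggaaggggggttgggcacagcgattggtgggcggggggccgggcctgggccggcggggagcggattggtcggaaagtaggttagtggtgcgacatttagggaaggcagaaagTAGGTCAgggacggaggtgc

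An E-box lay in the window of 12 of 58 genes higher around lights off (20.7%) and of 5 of 55 higher around lights on (9.1%), against 1293 of 11767 tested genes with a window (11.0%). For the D-box the shares were 3.4%, 1.8% and 1.0%, and for the receptor element 8.6%, 10.9% and 6.7%. In the clock repressor list 4 of 9 windows held an E-box (44.4%). These shares describe the letters in the windows and were not tested.

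Outside the clock, the genes with the largest differences toward lights on included secreted, matrix and surface proteins. Spon2, which encodes the secreted matrix protein spondin 2, had the largest of them. It measured 1062, 1448, 1890, 1633 and 1540 at hours 2, 22, 26, 46 and 50 and 398, 346, 428 and 359 at hours 10, 14, 34 and 38. The 4 arrays around lights off lay close together, and even the lowest around lights on, of hour 2, was well above them, for 1.92 ± 0.15 in log2 (SE), 3.79-fold, adjusted p = 0.000196. Adamts4, a metalloprotease that cleaves the proteoglycan aggrecan, measured 328, 393, 594, 431 and 473 against 170.2, 139, 156 and 151, again without overlap and with hour 2 the lowest of its group. Adamts4 differed by 1.41 ± 0.14 in log2 (SE), 2.66-fold, adjusted p = 0.00121. Has2, a hyaluronan synthase, measured 616, 869, 731, 639.8 and 635 against 306, 365, 429 and 324. Has2 differed by 0.94 ± 0.12 in log2 (SE), 1.92-fold, adjusted p = 0.00724. In the list of matrix proteases and their inhibitors only Spon2 and Adamts4 were called among 31 tested members. In this direction 0.488% of all genes were called. Spon2 is neither a protease nor an inhibitor, and the list median was -0.008. Adamts5 was called as well without hours 2 and 46 (adjusted p = 0.00883). None of 31 collagens and collagen-modifying enzymes was called, with Col12a1 nearest at -0.38 (adjusted p = 0.0818, limma). In each direction 2 members had an unadjusted p under 0.05, as had 2019 of all 14953 genes in either. Without hours 2 and 46 P4ha2 and Serpinh1 were called higher around lights on (0.0128 and 0.0307).

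Tshr, the receptor for thyroid-stimulating hormone, measured 687, 917, 780.3, 957 and 802 around lights on and 372, 356, 383 and 253 around lights off. Tshr differed by 1.25 ± 0.13 in log2 (SE), 2.38-fold, adjusted p = 0.00181. Cxcl14, a chemokine made in healthy skin, measured 2179, 3491, 3129, 3177 and 3186 and 1260, 1442, 1524 and 1453. Hour 2 was its lowest array around lights on, still above all 4 around lights off, and the difference was 1.07 ± 0.13 in log2 (SE), 2.10-fold, adjusted p = 0.00406. It was the 1 gene called among 27 chemokines and chemokine receptors, where 0.488% of all genes were called in this direction. The list median was -0.061. Arhgap20 measured 922, 1155, 1105, 803 and 1228 against 319, 461, 359 and 381. Arhgap20 differed by 1.41 ± 0.14 in log2 (SE), 2.67-fold, adjusted p = 0.00116. Il33, a cytokine released by damaged epithelium, was at 1098 to 1719 against 809.6 to 874 (0.70 ± 0.13 in log2 (SE), 1.62-fold, adjusted p = 0.0376), and Fbn2, a fibrillin of elastic fibres, at 252 to 359 against 190.2 to 225 (0.61 ± 0.10 in log2 (SE), 1.53-fold, adjusted p = 0.0212); Clmp, an adhesion molecule of cell junctions, differed by 1.55-fold (adjusted p = 0.0295). Each of these 3 calls was lost without several single arrays, Il33 without any 1 array except hours 26 and 46 (up to 0.127), Fbn2 without any 1 array except hours 2, 34 and 46 (up to 0.0867) and Clmp without any 1 array except hours 2, 34 and 46 (up to 0.118).

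Enzymes and epithelial genes completed the leading genes toward lights on, a direction in which 0.488% of all genes were called. Mthfd2, a mitochondrial enzyme of folate metabolism, measured 668, 850.3, 754, 582 and 577 against 318, 387, 401 and 386 (0.84 ± 0.12 in log2 (SE), 1.79-fold, adjusted p = 0.0123; adjusted p = 0.0516 without hour 10). Scd2, a desaturase that makes unsaturated fatty acids, measured 4447, 5872, 6110, 6178 and 5515 against 2786, 3735, 2992 and 3125 (0.83 ± 0.12 in log2 (SE), 1.77-fold, adjusted p = 0.0101), the 1 call among 19 fatty acid synthesis genes. Aknad1 was at 559.8 to 721 against 351 to 384. Aknad1 differed by 0.76 ± 0.09 in log2 (SE), 1.70-fold, adjusted p = 0.00432. The tight junction gene Cldn10 was at 2442 to 3320 against 1152 to 2205 (0.94 ± 0.18 in log2 (SE), 1.91-fold, adjusted p = 0.0379), but hour 34 at 2205 came close to the lowest array around lights on, and the call was lost without any 1 array except hours 2, 34 and 46 (up to 0.134) and without hours 2 and 46 together (0.0524). Serpinb12, a protease inhibitor, differed by 1.85-fold (adjusted p = 0.0404; lost without any 1 array except hours 2 and 46, up to 0.133) with its highest array at hour 2 (1496), and Rtl3, a gene derived from a retrotransposon, by 1.74-fold (adjusted p = 0.0323; lost without any 1 array except hours 2 and 46, up to 0.109). Among keratinocyte genes, Calml3 of the differentiation list (1 of 28 called) was higher by 1.43-fold (adjusted p = 0.0338) and Sfn, the 14-3-3 sigma gene of the basal list (1 of 15), by 1.31-fold (adjusted p = 0.0358). The Calml3 call was lost without any 1 array except hours 34, 46 and 50 (up to 0.13) and the Sfn call without any 1 array except hours 2 and 46 (up to 0.13). Calml3 was not called without hours 2 and 46 together (0.0596), and the 1 call of the differentiation list was then Tgm3, a transglutaminase, in the other direction (-0.54, 0.0285).

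**Figure D3:**
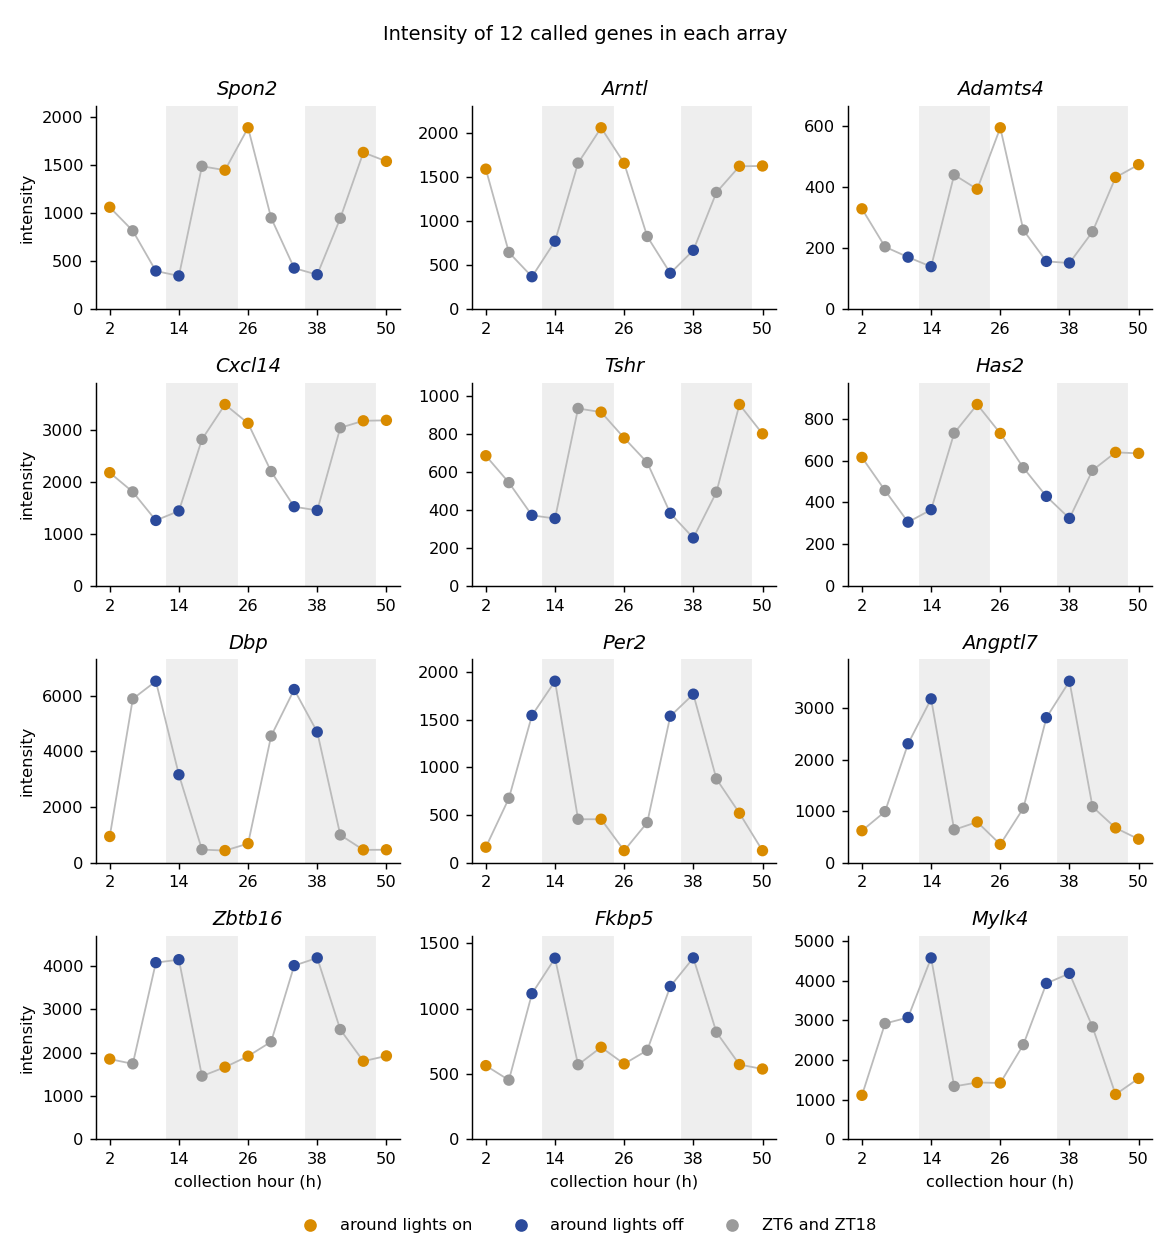
Intensity (y axis, linear, from 0, no unit) of 12 genes called by limma against collection hour (x axis, h), 1 point for each of 13 arrays, with the dark phase shaded; the line joins arrays in order of time. In each gene the orange points (around lights on) and blue points (around lights off) do not overlap, and Dbp falls from 6524 at hour 10 to 434 at hour 22.

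Many genes of mitosis and G2 were higher around lights on. Of 29 tested members of this list 15 were called, all in this direction, where 0.488% of all genes were called. In 24 members the groups did not overlap, against 6.33% of all genes, and all 29 differences were positive, against 47.2% of all genes, with a median of 0.498 (-0.012 over all genes). The mean log2 level of the list was 8.90, 9.16, 9.0, 9.02 and 8.96 at hours 2, 22, 26, 46 and 50 and 8.54, 8.50, 8.66 and 8.60 at hours 10, 14, 34 and 38. All 5 arrays around lights on were above all 4 around lights off, and hour 22 was the highest. Anln, the scaffold of the cleavage furrow, had the largest difference, with 822, 1189, 906, 953 and 900.4 around lights on and 532, 564, 611 and 544 around lights off. Anln differed by 0.74 ± 0.10 in log2 (SE), 1.67-fold, adjusted p = 0.0096. Cdc20, the activator of the anaphase-promoting complex, had the smallest p, with 389, 366, 406, 419 and 392 against 285, 258, 279 and 252. Cdc20 differed by 0.53 ± 0.07 in log2 (SE), 1.45-fold, adjusted p = 0.00623. Prc1, which bundles the microtubules of the central spindle, measured 428, 534, 440.1, 418 and 413 against 275, 261, 297 and 318. Prc1 differed by 0.60 ± 0.09 in log2 (SE), 1.52-fold, adjusted p = 0.0154.

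The other 12 called members act from entry into mitosis to cytokinesis. Of the kinases and cyclins that drive entry into mitosis, Cdk1 was at 460.4 to 579.6 against 306 to 417, Ccnb2 at 994 to 1125 against 607 to 831, Ccna2 at 869.7 to 1199 against 651 to 728 and Plk1 at 460.3 to 580.0 against 320.5 to 381, with folds of 1.42, 1.44, 1.50 and 1.46. Kinesins of the spindle (Kif11, Kif20a and Kif23), Nusap1 and the cytokinesis factor Ect2 had folds of 1.37 to 1.52. Top2a, which untangles chromosomes, Cenpf of the kinetochore and the proliferation marker Mki67 had folds of 1.46, 1.35 and 1.41. The adjusted p-values of these 12 were 0.0166 to 0.044 (limma). Outside the list, and named after their values were seen, the spindle gene Aspm (1.51-fold), Cdca3 (1.45), Cenpa (1.26), Sgo2a (1.48) and the nuclear transport genes Ran (1.32) and Ranbp1 (1.41) were also called in this direction. Cenpa, Ran and Ranbp1 lost their calls without any 1 array except hour 46 (up to 0.134, 0.17 and 0.152), and Aspm, Cdca3 and Sgo2a without hour 10, 14 or 38 (up to 0.0916, 0.0665 and 0.066). Without hours 2 and 46 together Cenpa was not called (0.065), nor were Cdk1 (0.0501), Ccnb2 (0.0624), Kif23 (0.0501), Top2a (0.0624) and Cenpf (0.0754), while Aurkb (0.0307) and Racgap1 (0.036) of the list gained a call. The count of 15 moved with the arrays in the fit. It was 2 without hour 14, 3 without hour 10 or 38, 6 without hour 26 or 50, 9 without hour 34 and 12 to 16 without each of the other 3. It was 12 without hours 2 and 46, 3 with the collection day as a block and 4 with the receptor gene score as a covariate, while the median stayed between 0.463 and 0.528 in these last 3 fits and after either scaling of the arrays. That score averages 1196 olfactory and vomeronasal receptor genes, which mark the dim end of an array, with each gene first scaled to its own mean and spread. The unscaled mean log2 level of these genes was 6.43 to 6.98 around lights on and 6.71 to 7.05 around lights off. The part of the score in the result was not tested.

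Mitotic genes commonly carry the element CHR (TTTGAA or TTCGAA) near their start site, to which the complexes that switch cell cycle genes bind. In the same RefSeq windows (GRCm38.p6) it was found in 20 of 24 members of the mitosis list (83.3%), in 21 of 55 genes higher around lights on (38.2%), in 8 of 58 higher around lights off (13.8%) and in 16.7% of all tested genes. These shares describe the letters in the windows and were not tested. Of the 15 called mitosis genes, all higher around lights on, 13 had a window and 12 of these a match. These 12 are part of the 21. Stretches of 5 of them around the match nearest the start site are shown, 5′ to 3′ on the strand of the gene, with every match on either strand in capitals; they were chosen after the shares were seen.
Cdc20, chr4:118437336-118437381, reverse strand: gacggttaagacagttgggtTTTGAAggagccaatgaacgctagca
Anln, chr9:22389160-22389205, reverse strand: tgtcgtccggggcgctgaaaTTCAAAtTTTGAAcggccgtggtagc
Prc1, chr7:80294426-80294471, forward strand: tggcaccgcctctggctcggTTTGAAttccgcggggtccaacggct
Plk1, chr7:122159445-122159484, forward strand: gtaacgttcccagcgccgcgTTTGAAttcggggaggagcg
Cdk1, chr10:69352902-69352947, reverse strand: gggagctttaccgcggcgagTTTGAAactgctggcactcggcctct

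DNA replication and S phase genes did not share this direction. None of 33 tested members was called by limma, and the list median was -0.108. An unadjusted p under 0.05 was found for 5 members, all higher around lights off, and for 2019 of all 14953 genes in either direction. Ccne2, the cyclin E2 gene, was nearest, with 209 to 282 around lights on and 312 to 344 around lights off (-0.40, adjusted p = 0.102). The mean log2 level of the list was 8.92 to 9.10 around lights on and 8.91 to 9.15 around lights off, so the groups overlapped. The difference between the lists was not tested.

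**Figure D4:**
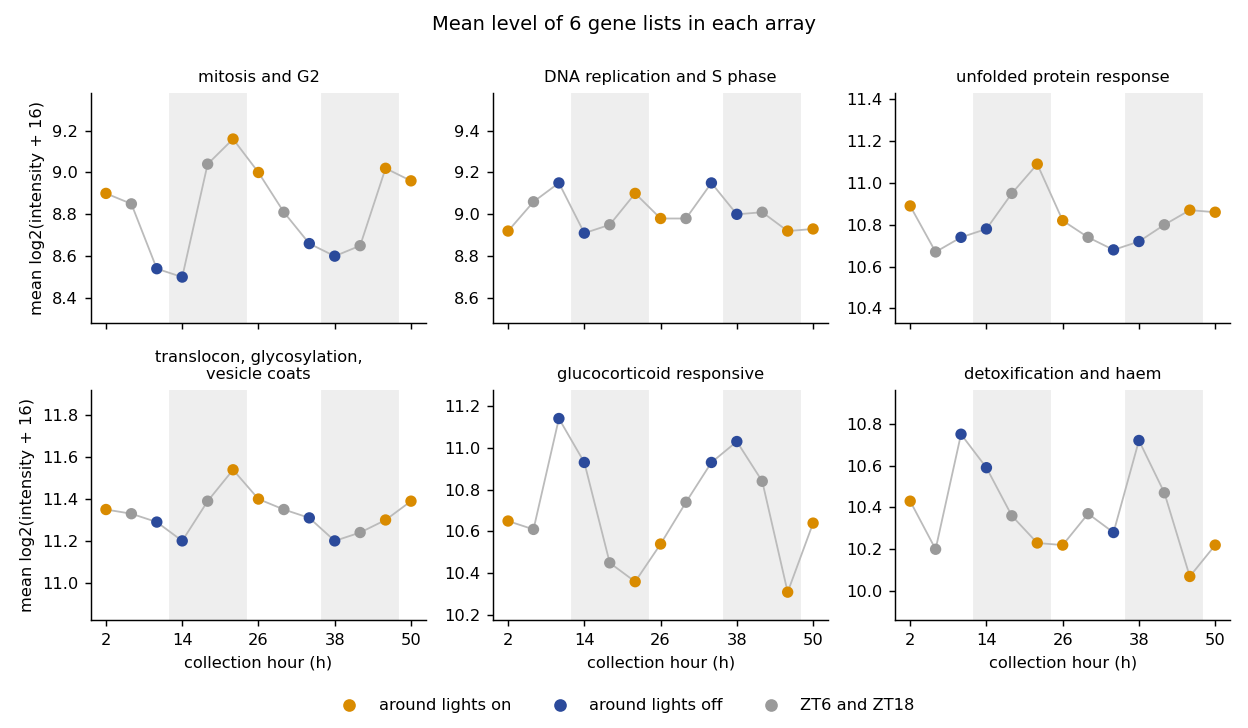
Mean log2(intensity + 16) over the tested members of 6 gene lists (y axis, each panel spanning the same range) against collection hour (x axis, h), 1 point for each of 13 arrays, with the dark phase shaded. The mitosis list lies at 8.90 to 9.16 around lights on and 8.50 to 8.66 around lights off, and the S phase list overlaps between the groups.

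Part of the protein-folding machinery of the endoplasmic reticulum was also higher around lights on. Of 29 genes of the unfolded protein response 3 were called, where 0.488% of all genes were called in this direction. In 11 members the groups did not overlap in this direction and in 1 in the other, against 6.33% of all genes in either, and the median was 0.169. The count of 3 was 2 without hours 2 and 46 and 1 with the day as a block or the receptor gene score as a covariate. It was 0 without hour 38 and 1 without hour 10, 14, 34 or 50. Sdf2l1, which works with the chaperone BiP, measured 1522, 1631, 1289, 1363 and 1414 around lights on and 880.1, 1043, 774 and 848 around lights off (0.70 ± 0.10 in log2 (SE), 1.62-fold, adjusted p = 0.0111; adjusted p = 0.0501 without hour 38). The disulfide isomerase Pdia6 was at 1321 to 1964 against 908 to 1009 (0.64 ± 0.11 in log2 (SE), 1.56-fold, adjusted p = 0.0228) and the lectin chaperone Calr at 7101 to 8372 against 5508 to 6129. Calr differed by 0.36 ± 0.07 in log2 (SE), 1.28-fold, adjusted p = 0.0445. The Pdia6 call was lost without hour 10, 14, 34, 38 or 50 (up to 0.1) and the Calr call without any 1 array except hours 2 and 46 (up to 0.171) and without these 2 arrays together (0.0504). Hspa5, the BiP gene, measured 3968, 5881, 3800, 4710 and 4633 against 3287, 4306, 3061 and 3721; the groups overlapped and its difference of 0.35 had an adjusted p of 0.319. Hsp90b1 did not overlap, but its difference of 0.35 had an adjusted p of 0.171.

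Levels in the list of translocon, glycosylation and vesicle coat genes overlapped between the groups. Its mean log2 was 11.3 to 11.54 around lights on and 11.2 to 11.31 around lights off. Of 40 differences in it 35 were positive, against 47.2% of all genes. Where 0.488% of all genes were called higher around lights on, 1 member of the list was called. This was Rpn1, a subunit of the oligosaccharyltransferase that attaches sugar chains to new proteins, at 2129 to 2657 against 1626 to 1816 (0.42 ± 0.08 in log2 (SE), 1.33-fold, adjusted p = 0.0462), lost without any 1 array except hour 46 (up to 0.17). Without hours 2 and 46 together it was not called (0.0615), and the vesicle coat gene Copg1 was (0.0345). Of the same machinery but outside the list, Ostc measured 3584, 3365, 3068, 2787 and 3002 against 2179, 2231, 2228 and 2188 (0.51 ± 0.08 in log2 (SE), 1.42-fold, adjusted p = 0.0167), and Gmppb, which makes GDP-mannose, differed by 1.46-fold (adjusted p = 0.0167). Both calls were lost without hour 10, 14 or 38 (up to 0.0753). Lists of other housekeeping machinery leaned the same way without a call in limma. Positive differences were found for 29 of 30 ribosome biogenesis genes (median 0.136, 8 at an unadjusted p under 0.05), 30 of 31 proteasome subunits (0.158, 7), 42 of 47 oxidative phosphorylation subunits (0.088, 1) and 18 of 19 sterol synthesis genes (0.226, 10), against 47.2% of all genes tested. Of all 14953 genes 2019 had an unadjusted p under 0.05. With the receptor gene score as a covariate the medians of these lists were 0.073, 0.081, -0.017 and 0.184. The mean log2 level of each of these lists overlapped between the groups. Hour 46, the lowest array around lights on in each, was at 9.52, 10.77, 11.04 and 11.0. The arrays around lights off were at 9.51 to 9.56, 10.77 to 10.86, 11.17 to 11.22 and 10.78 to 11.05. Nearest to a call were Fbl (0.34, adjusted p = 0.12), Psmb6 (0.29, 0.135), Atp5o (0.25, 0.332) and Sqle (0.35, 0.163).

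Around lights off, the leading gene outside the clock was that of the secreted factor Angptl7. It measured 621, 791, 355, 675 and 456 at hours 2, 22, 26, 46 and 50 and 2313, 3186, 2820 and 3530 at hours 10, 14, 34 and 38. Both ZT14 arrays were above both ZT10 arrays, and all 4 were far above the highest array around lights on, for -2.36 ± 0.22 in log2 (SE), 5.13-fold, adjusted p = 0.000676. Tspan4, a tetraspanin of the cell membrane, measured 956, 1218, 1077, 1264 and 1077 against 2464, 2630, 2382 and 2588. Tspan4 differed by -1.16 ± 0.09 in log2 (SE), 2.24-fold, adjusted p = 0.000196. Cntfr, the receptor subunit for ciliary neurotrophic factor, was at 680.4 to 1066 against 1334 to 2517 (-1.02 ± 0.20 in log2 (SE), 2.03-fold, adjusted p = 0.0416), a call lost without any 1 array except hours 34 and 46 (up to 0.152) and without hours 2 and 46 together (0.0588). Further receptors and transporters of nerve and itch signals were called, named here after their values were seen. Adcyap1r1, the receptor of the neuropeptide PACAP, measured 223, 267, 329.5, 282 and 299 against 528, 522, 560.5 and 465. Adcyap1r1 differed by -0.86 ± 0.11 in log2 (SE), 1.82-fold, adjusted p = 0.00435. Il31ra, a receptor subunit for the itch cytokine IL-31, was higher around lights off by 1.55-fold (adjusted p = 0.0212), the neuropeptide Y receptor Npy1r by 1.46-fold (0.0255) and the serotonin transporter Slc6a4 by 1.27-fold (0.0358). Single arrays ended these last 3 calls, for Il31ra without hour 14, 26, 34, 38 or 50 (up to 0.0859), for Npy1r without any 1 array except hours 2, 22 and 46 (up to 0.109) and for Slc6a4 without any 1 array except hours 2 and 46 (up to 0.133). Npy1r and Slc6a4 were not called without hours 2 and 46 together either (both 0.0569), nor Npy1r after quantile normalization (0.0742).

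Of 21 tested genes known to respond to glucocorticoids, hormones that in mice rise before the active phase, 5 were called, all higher around lights off, where 0.535% of all genes were called. In 8 the groups did not overlap, against 6.33% of all genes in either direction. Of the 21 differences 20 were negative, where 47.2% of all genes were higher around lights on, and the median was -0.364. Tat, at -1.31 and not called, is also a member of the liver list described below. Zbtb16, a transcription factor, measured 1849, 1663, 1916, 1800 and 1922 at hours 2, 22, 26, 46 and 50 and 4070, 4139, 4002 and 4179 at hours 10, 14, 34 and 38. The arrays within each group lay close together, and the difference was -1.16 ± 0.07 in log2 (SE), 2.23-fold, adjusted p = 1.71e-05. Fkbp5, a co-chaperone of the glucocorticoid receptor, measured 564, 704, 577, 572 and 538 against 1114, 1385, 1169 and 1387 (-1.08 ± 0.10 in log2 (SE), 2.11-fold, adjusted p = 0.000732), and Tsc22d3, an anti-inflammatory factor, 1231, 1426, 965, 1261 and 1009 against 2179, 2415, 2204 and 2303. Tsc22d3 differed by -0.95 ± 0.11 in log2 (SE), 1.94-fold, adjusted p = 0.00387. Per1, already described with the clock, is the next, and Hif3a was at 512 to 744 against 890.4 to 968 (-0.52 ± 0.10 in log2 (SE), 1.43-fold, adjusted p = 0.048; lost without any 1 array except hours 2 and 46, up to 0.175, and after quantile normalization, 0.052). Dusp1, Klf9 and Sgk1 of the list did not pass, with -0.54, -0.52 and -0.36. The immediate early list, which holds Dusp1 too, had 20 of 23 negative differences, a median of -0.162 and 0 calls in limma. An unadjusted p under 0.05 was found for 5 of its members and for 2019 of all 14953 genes.

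Among muscle genes the calls were few and large, and all were higher around lights off, where 0.535% of all genes were called. Mylk4, a myosin light chain kinase, measured 1109, 1432, 1419, 1131 and 1535 around lights on and 3069, 4569, 3927 and 4180 around lights off. Mylk4 differed by -1.56 ± 0.14 in log2 (SE), 2.94-fold, adjusted p = 0.000501. Tcap, the titin cap of the sarcomere, measured 493, 424, 522, 284 and 542 against 744, 967, 956 and 1003 (-1.02 ± 0.18 in log2 (SE), 2.03-fold, adjusted p = 0.0237), and Lmod2, a nucleator of actin filaments, 1257, 1210, 1739, 1038 and 1985 against 2302, 2534, 3206 and 2642. Lmod2 differed by -0.91 ± 0.18 in log2 (SE), 1.88-fold, adjusted p = 0.0472. The Tcap call was lost without hour 14, 22, 34 or 38 (up to 0.0948), and the Lmod2 call without any 1 array except hours 46 and 50 (up to 0.146) and without hours 2 and 46 together (0.0867). Tcap was the 1 call among 28 skeletal muscle genes, with a median of -0.095 and 0.055 without hours 2 and 46, and the summed intensity of that list was 137856 to 205356 around lights on and 165389 to 189876 around lights off. Mylk4 and Lmod2 were the 2 calls among 18 muscle regulators and metabolic genes, where the median was -0.130. In each direction 3 members of that list had an unadjusted p under 0.05, as had 2019 of all 14953 genes in either. Large differences toward lights on in that list were those of Ppp1r3c (1.07, adjusted p = 0.262), Lrrc30 (0.88, 0.259) and Asb2 (0.73, 0.154), which did not pass and whose groups overlapped.

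Of 24 tested enzymes of detoxification and haem synthesis 4 were called, all higher around lights off, where 0.535% of all genes were called, and the list median was -0.315. The count of 4 was 3 without hours 2 and 46, 2 with the receptor gene score as a covariate, 1 with the day as a block and 1 without hour 10, 26, 38 or 50. Alas1, the first and limiting enzyme of haem synthesis, measured 1687, 1873, 1798, 1830 and 1863 at hours 2, 22, 26, 46 and 50 and 4192, 3428, 2529 and 3497 at hours 10, 14, 34 and 38. Alas1 differed by -0.89 ± 0.12 in log2 (SE), 1.85-fold, adjusted p = 0.0096. The arrays around lights on lay close together, while hour 34 was the lowest around lights off. Fmo1, a flavin monooxygenase, measured 2642, 2669, 1890, 2145 and 2125 against 3873, 3789, 2879 and 3970 (-0.66 ± 0.13 in log2 (SE), 1.58-fold, adjusted p = 0.0427), Cyp2b10, a drug-inducible cytochrome P450, was at 2358 to 3030 against 3439 to 4205 (-0.52 ± 0.09 in log2 (SE), 1.43-fold, adjusted p = 0.0296), and Ephx1, the microsomal epoxide hydrolase, at 2681 to 2803 against 3176 to 4229. Ephx1 differed by -0.46 ± 0.09 in log2 (SE), 1.38-fold, adjusted p = 0.0365. Single arrays ended the calls of Fmo1 (without any 1 array except hours 2, 22 and 34, up to 0.164), Cyp2b10 (without hour 10, 14, 26, 38 or 50, up to 0.12) and Ephx1 (without any 1 array except hours 14 and 46, up to 0.142). Without hours 2 and 46 together Fmo1 (0.0569) and Ephx1 (0.0816) were not called, while Gstt1, a glutathione transferase, was (0.0495). Cyp2e1, a P450 listed with the liver genes, measured 7623, 4679, 5441, 4687 and 5976 against 11960, 10370, 7689 and 10800 (-0.85 ± 0.16 in log2 (SE), 1.80-fold, adjusted p = 0.041), lost without any 1 array except hours 2, 34 and 46 (up to 0.151). The summed liver list was 132036, 46061, 77095, 28481 and 96360 at hours 2, 22, 26, 46 and 50 and 163186, 107989, 38266 and 144224 at hours 10, 14, 34 and 38. Hour 34, lowest around lights off in the liver sum, was also lowest there in Alas1, Fmo1, Cyp2b10 and Cyp2e1, but 4143 in Ephx1. Around lights on, hour 2 was highest in the liver sum and in Cyp2e1, but lowest in Alas1. Fmo1 (2642), Cyp2b10 (2588) and Ephx1 (2756) were neither highest nor lowest of their group at hour 2. The liver sum of hour 2 was also above those of hours 14 and 34. Of 21 tested liver genes 20 had negative differences, with a median of -0.739, and Cyp2e1 alone was called; Alb was at 5263 to 17620 and 8511 to 18770. The part of liver RNA in the differences of these enzymes was not tested.

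Genes of amino acid handling, insulin signalling and lipid storage were among the calls around lights off, chosen after their values were seen unless a list held them. Of all genes tested 0.535% were called in this direction. Slc6a6, the taurine transporter, measured 2477, 2388, 2797, 2330 and 2650 against 4722, 4393, 5012 and 4489 (-0.88 ± 0.08 in log2 (SE), 1.84-fold, adjusted p = 0.000501), and Glul, glutamine synthetase, 4507, 5326, 4512, 5084 and 5031 against 7944, 8579, 6999 and 8464. Glul differed by -0.71 ± 0.09 in log2 (SE), 1.63-fold, adjusted p = 0.00406. Irs2, which relays the insulin signal, was higher around lights off by 1.45-fold (adjusted p = 0.0205), as were 2 inhibitors of the same route, Pik3ip1 of the kinase PI3K (1.50-fold, 0.0205) and Deptor of mTOR (1.35-fold, 0.019). Stc2, a secreted glycoprotein hormone, was also higher then (difference -0.62 ± 0.09 in log2 (SE), 1.53-fold, adjusted p = 0.0096), and so was the kinase gene Sik1 by 1.43-fold (0.0358). Cidec, which coats lipid droplets, was at 3282 to 3970 against 4718 to 5446 (-0.51 ± 0.08 in log2 (SE), 1.43-fold, adjusted p = 0.0152), the 1 call among 16 lipid droplet genes. Cys1, a protein of cilia, measured 226, 312, 213, 344 and 258 against 483, 659.8, 455 and 591 (-0.98 ± 0.15 in log2 (SE), 1.98-fold, adjusted p = 0.0167), and the anion channel gene Best2 204, 210.5, 196, 230.2 and 213 against 269.9, 454, 316 and 458 (-0.75 ± 0.15 in log2 (SE), 1.68-fold, adjusted p = 0.041), with both ZT14 arrays of Best2 above both ZT10 arrays. Leaving out single arrays ended the calls of Irs2 (without hour 10, 34 or 38, up to 0.0916), Pik3ip1 (without hour 10, 34, 38 or 50, up to 0.083), Deptor (without hour 10, 14, 34, 38 or 50, up to 0.0916), Sik1 (without any 1 array except hours 26 and 46, up to 0.143), Cidec (without hour 10 or 14, up to 0.0707), Cys1 (without hour 14 or 38, up to 0.0713) and Best2 (without any 1 array except hours 10 and 46, up to 0.13). Without hours 2 and 46 together Irs2 (0.0503), Sik1 (0.0549) and Best2 (0.0744) were not called, nor Best2 after quantile normalization (0.089).

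The 47 gene lists described held 913 tested genes and 55 of the 153 called genes, where 1.02% of all genes tested were called. An unadjusted p under 0.05 was found for 2019 of all 14953 genes. Markers of resting follicle stem cells (14 tested, nearest Lgr5 at 0.27), melanocytes (10, Mlana at -0.63), endothelium (14, Kdr at 0.36), macrophages and dendritic cells (17, C1qc at -0.35), T cells and mast cells (10, Cd4 at -0.23), fat cells (11, Fabp4 at -0.20), dermal fibroblasts (16, Postn at -0.23) and sebaceous glands (10, Elovl3 at 0.27) had no call in limma. Their adjusted p-values ranged from 0.102 for Mlana to 0.453 for Cd4; without hours 2 and 46 Kdr was called higher around lights on (0.0345). Nucleotide excision repair genes (22, median 0.070), antioxidant genes (21, 0.038), glycolysis (20, 0.024), cytosolic heat shock proteins (21, 0.077), interferon responsive genes (18, -0.075) and nuclear receptors (20, -0.065) had none either, with 4, 5, 1, 6, 3 and 4 members at an unadjusted p under 0.05. Within those the member with the smallest p had differences of 0.25 (Gtf2h5), -0.23 (Nfe2l2), 0.42 (Pfkp), 0.31 (Stip1), -0.32 (Ifit3) and 0.48 (Rxrg), and Rxrg was called without hours 2 and 46 (0.0307). The hair shaft list had a median of 0.383 over 23 genes, but -0.216 without hours 2 and 46; Krt28 measured 1504 at hour 46 against 146 to 224 in the other arrays around lights on, and 0 of the 23 were called, with 0 at an unadjusted p under 0.05.

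**Figure D5:**
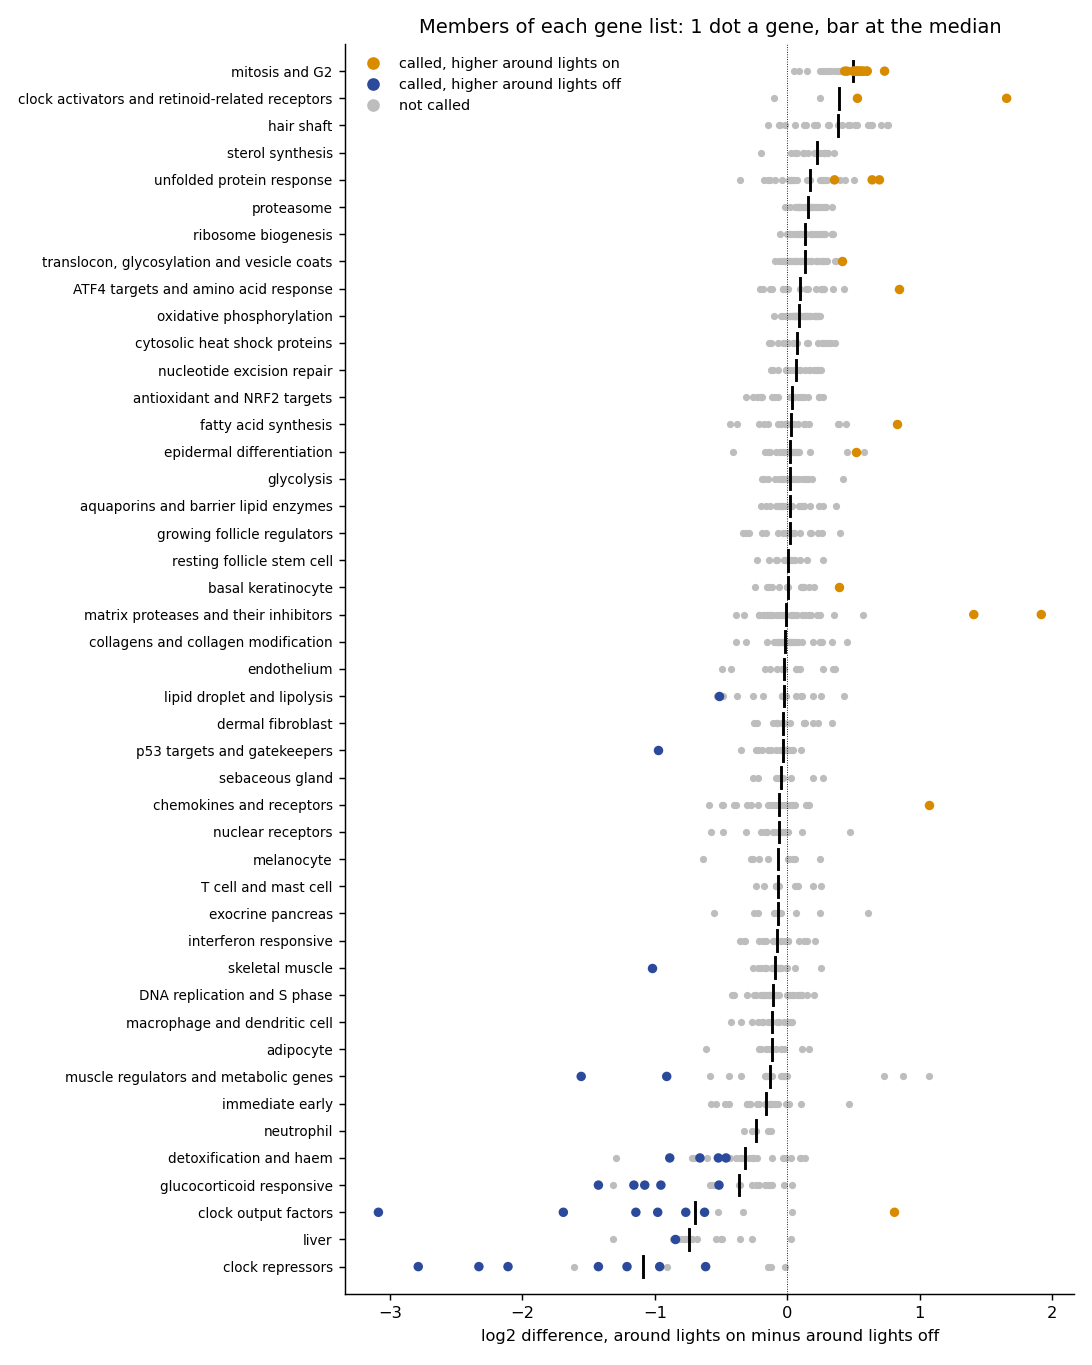
Log2 difference around lights on minus around lights off (x axis) of the tested members of the gene lists (y axis, ordered by median), 1 dot a gene, with a bar at the median; coloured dots are called by limma. The mitosis list lies to the right of 0 in all 29 members, with a median of 0.498, and the clock repressor list lies furthest left with a median of -1.09.

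The arrays of ZT6 and ZT18, which lie between the groups in time, showed where the called genes stood in the middle of the light and of the dark. They took no part in the test, but did in the choice of probe sets and the filter on dim genes. On a scale where the mean of the lower group is 0% and that of the higher group 100%, the 73 genes higher around lights on had a median position of 56.1% at ZT6 and 69.2% at ZT18. The 80 genes higher around lights off were at 55.2% at ZT6 but 20.2% at ZT18. At ZT18, 63 of the 73 were nearer to their higher group and 4 of the 80 were. Arntl at ZT18 measured 1663 and 1329, close to its level around lights on, while at ZT6 it measured 646 and 828. Dbp measured 5889 and 4552 at ZT6 and 468 and 995 at ZT18, Slc6a6 4123 and 3762 at ZT6 and 2417 and 2954 at ZT18. Zbtb16 was low at both times, with 1739 and 2248 at ZT6 and 1456 and 2529 at ZT18, as was Angptl7 with 993 and 1059 at ZT6 and 639 and 1087 at ZT18. Mean levels of the mitosis list at ZT6 were 8.85 and 8.81, and at ZT18 9.04 and 8.65, so its ZT18 arrays of the successive days lay apart.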

How the data were processed

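The authors deposited 1 linear intensity per probe set and array; per the submitters' processing notes, Affymetrix Expression Console 1.1.1 and PLIER 2.0 were used, and per the labels' protocols TRIzol and spin column RNA was labelled with the Ambion WT kit. How the arrays were normalized, and the genome build, is not given in the sources used here. Of 35557 probe sets, 21789 were annotated to 1 gene, and the brightest was kept for each of 19938 genes. The dimmest 25% were left out, and 14953 genes were tested on log2(intensity + 16) with lmFit and eBayes of limma 3.58.1 (R 4.3.3), two-sided, with Benjamini-Hochberg adjustment and a threshold of 0.05, over the 9 arrays alone. The fit was also run on simulated data. Those values were independent, without times of day or arrays that stood apart, so the run says nothing on these features.

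The collection times of the groups, the members and the 47 gene lists were chosen with earlier results of these data known, so lists are described by counts and medians and not tested. Of the 128 genes named, 87 follow a rule. They are the 15 largest called differences in each direction among genes without overlap, and all tested genes of the clock lists. From every other list they are up to 3 called members or, where none was called, the member with the smallest p. The other 41 were chosen after their values were seen, as were list members named for a change of call without hours 2 and 46 and 3 muscle genes. Promoter windows with a match are printed of the 4 genes per direction ranked highest with a RefSeq entry. No 2 arrays held identical values, and the labels give no numbers that pair arrays across the groups. Alternatives covered the offset, filter, normalization, probe set choice, variance model, collection day, covariates and arrays left out.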

Additional observations from a re-analysis of the deposited data

Results flagged for a closer look

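In each group of 4 or 5 arrays the highest and lowest value on the log2 scale was compared with its neighbour, and 18 of 286 groups tested held an array with a gap beyond Dixon's 95% critical value, where chance alone gives about 1 in 20. Hour 22 accounted for 6 of the 18. There Arntl measured 2065 (the other arrays around lights on 1594 to 1661), Fkbp5 704.1 (537.8 to 576.7), and 4 mitosis genes were highest, with Prc1 at 534.1 (413.2 to 440.1), Aspm at 399.3 (303.0 to 315.8), Ect2 at 746.7 (526.9 to 545.8) and Kif23 at 734.5 (541.2 to 586.6). At hour 2 Cxcl14 measured 2179 (3129 to 3491), and the summed lists of macrophages and dendritic cells, of T cells and mast cells and of dermal fibroblasts were 34913 (44628 to 48265), 10824 (13886 to 14928) and 68728 (83386 to 87612). At hour 46 the hair shaft list summed to 99093 (7505 to 9400) and Krt28 measured 1504 (146.1 to 224.4).

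Around lights off, hour 10 was low in Mthfd2 at 317.8 (385.7 to 401.1) and in Tcap at 744.4 (955.6 to 1003). Hour 38 was high in Cry2 at 1706 (1602 to 1617) and in Il33 at 874.1 (809.6 to 820.1). Hour 14 was low in Kdr at 540.6 (584.1 to 593.3), and hour 34 was low in Fmo1 at 2879 (3789 to 3970).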

How the results depend on the processing

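No call of the 153 changed sign under any of the 25 alternatives. The count of 153 was 314 (155 higher around lights on, 159 higher around lights off) with all 13 arrays in the fit, 260 (131 and 129) with the hair shaft score as a covariate, 65 (23 and 42) with the receptor gene score as a covariate, 58 (22 and 36) with the collection day as a block, and 0 (0 and 0) within day 1 or day 2 alone. Without the filter on dim genes 53 were higher around lights off, after quantile normalization 117 and without hours 2 and 46 together 111 were higher around lights on. Leaving out each array in turn gave 45 to 246 calls, 14 to 131 higher around lights on and 31 to 115 higher around lights off. The single days and the fits with arrays left out hold fewer arrays, and the cause of the changes in the counts was not tested.

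In the 23 alternatives other than single days 32 genes were called every time, 10 higher around lights on and 22 higher around lights off, among them Spon2, Arntl, Cxcl14, Anln, Dbp, Per3, Tef, Zbtb16 and Slc6a6. No paired analysis was possible because the labels give no replicate numbers that tie single arrays of the groups together, and the collection day, which both groups share, was fitted as a block in its place. Each group holds 4 or 5 pools, and dim genes near the background of the arrays limit what small folds can show.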
